A study of Mus musculus with 14 samples.

Results

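The skin barrier lipid genes are a set of 10 genes named by symbol: Elovl4, Cyp4f39, Cers3, Pnpla1, Abhd5, Ugcg, Abca12, Alox12b, Aloxe3 and Smpd1. Each gene was read from the probe set with the highest mean log2 signal over all arrays, and 9 of the 10 were measured among 17097 genes with a single symbol. Pnpla1 was matched to no probe set by symbol or Entrez identifier and was not analysed here. The data were 14 Affymetrix arrays of epidermal cells of mice 15 weeks old, from homeostatic skin. Bulge cells, from the stem cell niche of the hair follicle, came from skin with a conditional knockout of G9a (bulge cKO, 4 arrays) or from G9a wild type skin (bulge WT, 3 arrays). Interfollicular epidermis (IFE), which covers the skin between follicles, gave cells of the same genotypes (IFE cKO, 4 arrays; IFE WT, 3 arrays). G9a, the product of Ehmt2, is an enzyme that methylates histone H3 on lysine 9. The sources used here name neither the promoter that drives the deletion nor the way the cells were separated. They do not say whether replicates were separate animals, so that p-values measure only the spread between these samples.

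As background, the water barrier of the skin is a stack of lipid sheets between dead cornified cells, rich in ceramides that carry an unusually long fatty acid. In suprabasal keratinocytes ELOVL4 elongates the fatty acid, CYP4F39 (the mouse counterpart of human CYP4F22) hydroxylates its far end, CERS3 joins it to the sphingoid base, and PNPLA1, with its partner ABHD5, adds linoleate. UGCG attaches glucose, ABCA12 loads the product into lamellar bodies for secretion, the lipoxygenases ALOX12B and ALOXE3 oxidise the linoleate, and SMPD1, the acid sphingomyelinase, releases ceramide from sphingomyelin. Loss of several of these genes in humans causes ichthyosis, a scaling disease of the skin.

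Promoters of 9 of the 10 genes were found in the RefSeq table (build GRCm38.p6), Aloxe3 being the gene without an entry. Shown here are the 250 bases before the start of the 2 genes with the largest cKO difference in bulge cells (Abca12 at chr1:71414911-71415160 and Elovl4 at chr9:83806306-83806555, both on the minus strand), of Cers3 (chr7:66743254-66743503, plus strand), with the third largest difference between WT compartments, and of Smpd1 (chr7:105554110-105554359, plus strand), whose compartment difference ran the other way. Each is written from 5′ to 3′ on the strand of its gene, and capitals mark matches to the motifs described after them.
Abca12: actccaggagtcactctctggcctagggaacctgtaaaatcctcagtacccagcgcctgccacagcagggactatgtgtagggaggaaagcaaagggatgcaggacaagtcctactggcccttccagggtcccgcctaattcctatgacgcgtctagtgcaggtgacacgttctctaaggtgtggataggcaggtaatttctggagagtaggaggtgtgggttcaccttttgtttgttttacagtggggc
Elovl4: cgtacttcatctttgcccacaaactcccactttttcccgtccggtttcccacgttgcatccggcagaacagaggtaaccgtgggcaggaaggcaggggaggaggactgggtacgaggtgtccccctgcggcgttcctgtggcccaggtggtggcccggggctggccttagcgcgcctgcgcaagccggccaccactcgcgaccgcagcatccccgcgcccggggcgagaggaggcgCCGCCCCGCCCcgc
Cers3: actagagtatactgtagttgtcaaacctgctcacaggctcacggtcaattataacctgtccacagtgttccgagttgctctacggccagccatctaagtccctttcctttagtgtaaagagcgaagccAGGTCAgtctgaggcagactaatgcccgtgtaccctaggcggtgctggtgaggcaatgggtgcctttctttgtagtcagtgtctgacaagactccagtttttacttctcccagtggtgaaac
Smpd1: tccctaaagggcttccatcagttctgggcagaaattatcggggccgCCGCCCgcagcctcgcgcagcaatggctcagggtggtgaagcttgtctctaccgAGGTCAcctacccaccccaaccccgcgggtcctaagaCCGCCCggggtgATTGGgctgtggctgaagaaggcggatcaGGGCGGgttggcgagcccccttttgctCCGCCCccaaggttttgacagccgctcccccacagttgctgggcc
Common promoter elements were searched on both strands, each by the letters given beside its share. The 250 bases of Abca12 held no match. Those of Elovl4 held 2 adjoining GC boxes that share a base, those of Cers3 a single AGGTCA, and those of Smpd1 4 GC boxes, an AGGTCA and a CCAAT box. A GC box, written GGGCGG, was present in 5 of the 9 promoters and in 32.7% of the 32851 promoters in the table. The half-site of nuclear receptors, AGGTCA, was found in 3 of 9, against 14% of all. Kruppel-like factors were searched as GGGNGTGG, present in 3 of 9 (Alox12b, Pnpla1 and Cyp4f39) and in 15.9% of all. The letters CCAAT were in 2 of 9, against 33.8% of all. For AP-1 the letters TGANTCA were in 0 of 9, against 6.75% of all promoters. Grainyhead-like factors, searched as AACCGGTT, also had 0 of 9, against 0.116%. The TATA box, TATAAA, had 0 of 9 (12.4% of all), and the E-box, CACGTG, likewise 0 of 9 (6.02%). The promoters also differed in CpG dinucleotides, with 5 in Abca12 and 6 in Cers3, 16 in Smpd1, 25 in Elovl4 and 43 in Ugcg, where the median over all promoters was 6. A match describes the sequence and is not a binding site.

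The labels were checked on Ehmt2 and on markers of the compartments. One Ehmt2 probe set read 5.85 to 6.02 on bulge cKO arrays against 9.51 to 9.69 on bulge WT arrays, and 5.95 to 6.09 on IFE cKO arrays against 9.59 to 9.78 on IFE WT arrays. The other Ehmt2 probe set read 7.84 to 8.05 on all 14 arrays. Whether either probe set lies in the deleted sequence was not analysed here. The bulge WT arrays were all above the IFE WT arrays for each of 15 measured bulge markers. The arrays of bulge cKO replicates 2 and 3 stood apart. Cd34, which marks the surface of bulge stem cells, read 9.84 and 9.95 there, 10.55 and 11.18 on replicates 1 and 4, and 10.93 to 11.43 in bulge WT. On IFE cKO replicates 2 and 3 Cd34 read 6.65 and 6.53, against 5.1 and 5.16 on replicates 1 and 4 and 5 to 5.12 in IFE WT. For the barrier lipid genes, differences between bulge cKO and WT are therefore also given without replicates 2 and 3. Bulge values of the marker lists and of the wider pathway rest on all 4 bulge cKO arrays. Without bulge cKO replicates 2 and 3, 77 genes were called higher and 39 lower over all genes, in place of 339 and 317.

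In bulge cells 8 of the 9 barrier lipid genes had a higher mean in cKO than in WT, as had 53.8% of all genes. Abca12 alone passed the test across all genes. The median log2 difference of the 9 was 1.01, where that over all genes was 0.01. A gene was called when its adjusted p in limma was under 0.05: 1 of the 9 was called higher and 0 lower, where 3.84% of all genes were called, 1.98% higher and 1.85% lower (339 and 317 genes, or 234 and 330 with each array's median set to the same value). At an unadjusted p under 0.05 the count was 6 of 9, against 25.7% of all genes. The groups did not overlap for Abca12 and Alox12b, both higher in cKO, as was the case for 10.5% of all genes. In bulk samples more cells of a type and more RNA per cell cannot be told apart.

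Abca12, the lipid transporter of lamellar bodies, showed the widest change. Its log2 signals were 6.01, 7.57, 7.35 and 6.62 on bulge cKO replicates 1 to 4, against 4.24, 4.27 and 4.92 on bulge WT replicates 1 to 3. Every bulge cKO array lay above every bulge WT array, and the WT values were below the medians of their arrays (5.76 to 5.84 over all arrays), where signal over background was not tested, so that the difference is one of measured signal. Between the groups the log2 difference was 2.41 (n = 4 and 3, SE 0.31, limma adjusted p = 0.002). Without cKO replicates 2 and 3 of both compartments it was 1.84 (limma adjusted p = 0.0275). With only the bulge arrays in the fit the size was the same and the limma adjusted p was 0.0656, so that the call is made only with the spread estimated over all 4 groups.

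Next came the enzymes that build the long fatty acid, neither of which passed the test. Elovl4 read 7.06, 10.54, 10.15 and 9.44 on bulge cKO replicates 1 to 4, against 7.71, 6.73 and 6.92 in bulge WT. Replicate 1 lay inside the WT range and the others far above it, and the difference came to 2.18 on the log2 scale (SE 0.63, limma adjusted p = 0.071). A second Elovl4 probe set gave 2.16. Cyp4f39, the hydroxylase, read 6, 7.76, 7.47 and 6.82 in bulge cKO, against 6.15, 5.51 and 6.02 in bulge WT. Again replicate 1 fell within the WT values, and the log2 difference was 1.12 (SE 0.33, limma adjusted p = 0.0715).

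Cers3, the ceramide synthase of the skin, read 4.6, 6.28, 6.1 and 5.56 in bulge cKO, against 4.78, 4.51 and 4.59 in bulge WT (log2 difference 1.01, SE 0.32, limma adjusted p = 0.0852). The bulge WT arrays and 2 of the 4 bulge cKO arrays were below their array medians. Abhd5, the lipid droplet protein that assists PNPLA1, read 8.67, 9.63, 9.54 and 9.02 in bulge cKO, against 8.69, 8.44 and 8.51 in bulge WT. Its difference was 0.67 on the log2 scale (SE 0.19, limma adjusted p = 0.068), and 0.63 on a second probe set. Ugcg, the glucosylceramide synthase, ranged from 5.93 to 6.48 in bulge cKO and from 5.82 to 5.98 in bulge WT (log2 difference 0.31, 95% interval -0.1 to 0.71).

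Of the lipoxygenases, Alox12b read 6.46, 7.7, 7.57 and 6.92 in bulge cKO, against 6.17, 5.78 and 6.19 in bulge WT. All cKO arrays were above all WT arrays, and the difference was 1.11 (log2 scale, SE 0.36, limma adjusted p = 0.0897). Aloxe3, which lies next to Alox12b on chromosome 11, ranged from 5.87 to 6.18 in bulge cKO and from 5.88 to 6.01 in bulge WT. Its log2 difference was 0.05 (95% interval -0.32 to 0.42), and in the bulge its values lay close to the array medians, which limits what its probe set can show. Smpd1, the acid sphingomyelinase, ranged from 7.44 to 7.67 in bulge cKO and from 7.51 to 7.69 in bulge WT (log2 difference -0.09, 95% interval -0.23 to 0.06).

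**Figure D1:**
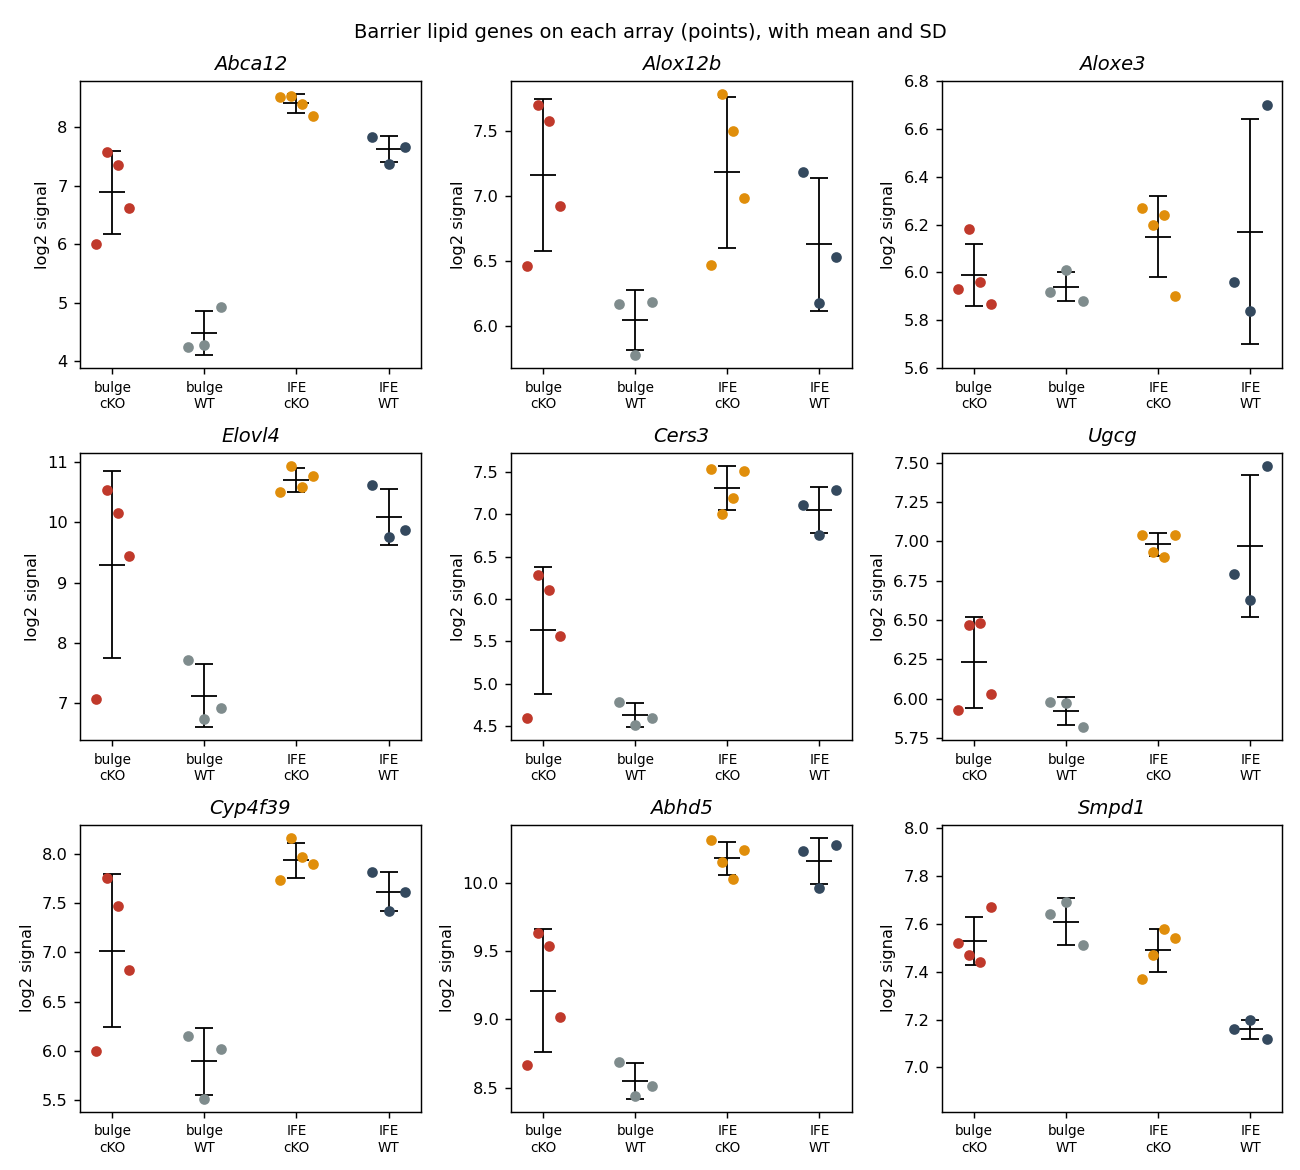
Log2 signal (y axis) of each measured barrier lipid gene on the 14 arrays, by group (x axis); points are arrays in the order of their replicate number, the bars give the mean and SD (n = 4, 3, 4 and 3). Abca12 on the bulge cKO arrays lies at 6.01 to 7.57, above the bulge WT arrays at 4.24 to 4.92, and 1 bulge cKO array sits among the WT arrays for Elovl4, Cers3 and Cyp4f39.

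The bulge cKO arrays differed among themselves in the same order for most of the genes. Replicate 1 was the lowest of the 4 for 7 of the 9 genes, and replicate 2 was the highest for 7 of 9. Averaged over the 9 genes, bulge cKO replicates 1 to 4 read 6.47, 7.73, 7.56 and 7.11, and bulge WT arrays 6.36, 6.1 and 6.26. On replicate 1 the median gene was 0.01 above its bulge WT mean, and 7 of 9 genes lay within the WT range, while Abca12 and Alox12b were above it. On replicates 2, 3 and 4 the median gene was 1.65, 1.47 and 0.87 above. There 8, 7 and 7 genes lay above the WT range and 1 gene below it on each (Smpd1 on replicates 2 and 3, Aloxe3 on replicate 4). The WT range rests on only 3 arrays, and the share of all genes outside it on each array was not computed.

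Leaving out bulge cKO replicate 1 raised the number of genes called higher to 6, namely Abca12 (log2 difference 2.71), Elovl4 (2.93), Cyp4f39 (1.46), Cers3 (1.35), Alox12b (1.35) and Abhd5 (0.85). Over all genes the calls were then 577 higher and 410 lower, in place of 339 and 317. Without bulge cKO replicate 4 it was 3, with Cyp4f39 and Abhd5 beside Abca12, where 1189 genes were called higher and 1364 lower. Without bulge cKO replicates 2 and 3, of the bulge alone or of both compartments, Abca12 was the 1 gene called, where all genes gave 77 higher and 39 lower, or 60 and 20. The log2 difference was then 0.64 for Alox12b, 0.52 for Cyp4f39, 0.46 for Cers3, 0.3 for Abhd5, 0.06 for Ugcg, -0.02 for Smpd1 and -0.03 for Aloxe3. Elovl4 had 1.13 (limma adjusted p = 0.549 without the bulge arrays alone, 0.647 without those of both compartments).

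**Figure D2:**
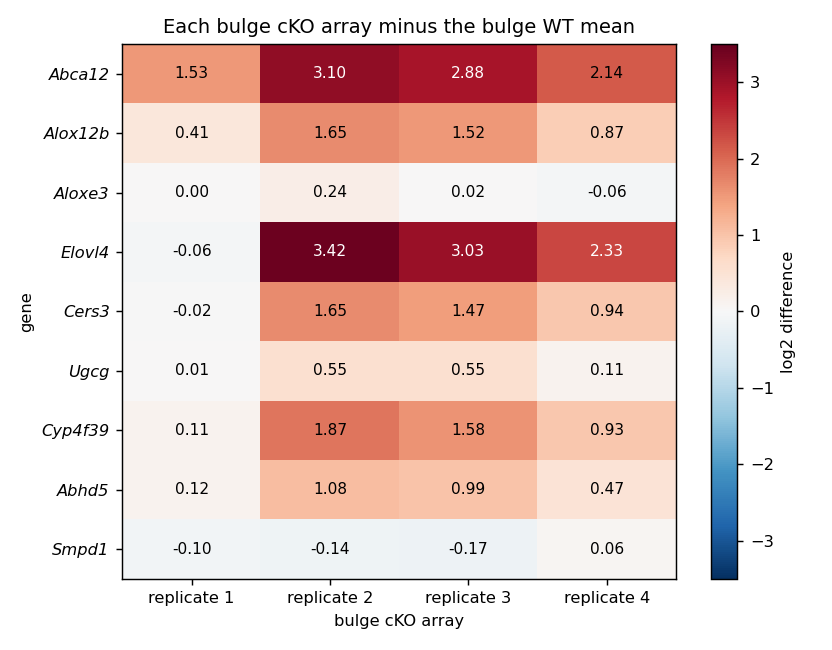
Log2 signal on each bulge cKO array minus the mean of the 3 bulge WT arrays (colour and printed value), with genes as rows and arrays as columns. On replicate 1 the differences are small for all genes but Abca12 (1.53) and Alox12b (0.41), whereas replicate 2 reaches 3.42 for Elovl4 and 3.1 for Abca12.

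Suprabasal markers had averages in the same order over the bulge cKO arrays as the barrier lipid genes. The averages of bulge and basal markers were below every bulge WT array and were highest on replicate 4. Averaged over 16 measured suprabasal markers, bulge cKO replicates 1 to 4 had log2 signals of 7.07, 8.78, 8.56 and 8.01, while bulge WT arrays lay between 6.61 and 7.16. Of these 16, Casp14 (log2 difference 2.32) and Sprr1a (1.53) were called higher and 0 lower, with a median of 1.08. Krt1, the keratin of the first suprabasal layer, read 9.36, 11.93, 11.75 and 11.31 in bulge cKO, against 9.41 to 9.87 in bulge WT. The 15 bulge markers averaged 9.84, 9.02, 9.2 and 10.05 in bulge cKO and 10.09 to 10.25 in bulge WT, with 0 called by limma and a median difference of -0.57. Of these 15, 10, 15, 15 and 6 were below every WT array on bulge cKO replicates 1 to 4, and 1, 0, 0 and 2 above. On bulge cKO replicate 1, where Abca12 was above every WT array, 5 of the 16 suprabasal markers (Casp14, Sprr1a, Ivl, Lor and Sbsn) were also above every WT array, 3 were below and 8 within the WT range. Casp14 read 6.08 there, against 4.82 to 5.86 in bulge WT. On each of replicates 2, 3 and 4 all 16 were above every WT array. The 9 measured basal markers averaged 11.2 to 11.4 in bulge cKO and 11.42 to 11.56 in bulge WT, with Lama3 (-0.4) and Itgb4 (-0.36) called lower, 0 higher and a median of -0.28. On bulge cKO replicates 1 to 4, 8, 6, 6 and 6 of the 9 were below every WT array, and 0, 1, 0 and 0 above. The share of all genes outside the range of the 3 WT arrays on each cKO array was not computed.

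The 9 measured sebocyte markers, whose cells also make surface lipids, averaged 5.9, 6.92, 6.58 and 6.33 over the bulge cKO replicates in order, against 5.77 to 5.97 in bulge WT. None of them was called by limma, and Mc5r, Plin5, Mogat1, Elovl3 and Cidea were below the array medians on all 14 arrays. Krt79 (1.66), Fabp5 (1.57) and Far2 (0.91) had the largest log2 differences, where the median of the 9 was 0.18. Markers of the upper follicle (7 genes, Krt79 again among them) averaged 8.97 to 9.58 in bulge cKO and 8.38 to 8.91 in bulge WT, with 0 called. Antigen presenting cells, Langerhans cells included, had 10 markers, of which 5 were called higher, H2-Ab1 among them (2.35), with averages of 6.59 to 7.26 in bulge cKO and 6.07 to 6.25 in bulge WT. T cell markers (8 genes) averaged 5.47 to 6.35 in bulge cKO and 5.23 to 5.45 in bulge WT, with 0 called. The lists of melanocyte, fibroblast and endothelial markers had medians of 0.05, 0.28 and 0.01, with Emcn (0.28) as the 1 gene called. The part of these markers in the differences of the barrier lipid genes was not tested.

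In IFE cells 8 of the 9 barrier lipid genes, all but Aloxe3, had a higher cKO mean, as had 45.2% of all genes. For Ugcg (0.01) and Abhd5 (0.02) the log2 difference was close to 0, and 0 of the 9 were called by limma. The median log2 difference was 0.32, against -0.01 over all genes, where 0.497% of genes were called, 0.322% higher and 0.175% lower. At an unadjusted p under 0.05 the count was 2 of 9, Abca12 and Smpd1, against 11% of all genes. The same 2 genes had groups that did not overlap, as had 5.01% of all genes in this direction.

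Abca12 read 8.52, 8.53, 8.4 and 8.19 in IFE cKO, against 7.84, 7.38 and 7.66 in IFE WT. The cKO arrays were all above the WT arrays, and the log2 difference was 0.78 (SE 0.31, limma adjusted p = 0.372). It was 0.73 without cKO replicates 2 and 3 of both compartments (limma adjusted p = 0.707). Smpd1 read 7.37, 7.47, 7.58 and 7.54 in IFE cKO, against 7.16, 7.2 and 7.12 in IFE WT. Its groups did not overlap either, and the difference was 0.33 (log2 scale, SE 0.07, limma adjusted p = 0.054). Smpd1 passed the test without IFE cKO replicate 1 (limma adjusted p = 0.0398) or without bulge cKO replicate 4 (0.0321). Over all genes these fits called 61 higher and 32 lower, and 58 and 33. The fit without bulge cKO replicate 4 left the IFE difference at 0.33 and changed only the spread. Without cKO replicates 2 and 3 of both compartments the Smpd1 difference was 0.3 (limma adjusted p = 0.44). A second, dimmer Smpd1 probe set gave 0.13 (limma adjusted p = 0.434).

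For the other genes the IFE groups overlapped. Elovl4 ranged from 10.5 to 10.94 in IFE cKO and from 9.76 to 10.62 in IFE WT (log2 difference 0.62, 95% interval -0.77 to 2). Alox12b spread widely in both groups, at 6.47, 7.78, 7.5 and 6.98 in IFE cKO against 7.18, 6.18 and 6.53 in IFE WT (log2 difference 0.55, 95% interval -0.23 to 1.33). Cyp4f39 had a difference of 0.32 (95% interval -0.39 to 1.04) and Cers3 of 0.26 (-0.43 to 0.95). Closest to 0 were Abhd5 at 0.02 (-0.4 to 0.44), Ugcg at 0.01 (-0.39 to 0.41) and Aloxe3 at -0.01 (-0.38 to 0.36). Without cKO replicates 2 and 3 of both compartments the IFE difference was 0.55 for Elovl4, 0.1 for Alox12b and 0.2 for Cyp4f39. It was then 0.47 for Cers3, 0.11 for Abhd5, 0.07 for Ugcg and -0.08 for Aloxe3. The suprabasal markers averaged 8.46 to 8.89 in IFE cKO and 8.13 to 8.74 in IFE WT, with a median difference of 0.26 and 0 called by limma. The bulge markers averaged 6.94 to 7.54 in IFE cKO and 6.97 to 7.09 in IFE WT. The basal markers averaged 11.18 to 11.38 in IFE cKO and 11.42 to 11.46 in IFE WT, with 0 called by limma. Their part in these values was not tested.

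Whether the cKO effect differed between bulge and IFE cells was tested as the difference of the effects, bulge minus IFE. Limma called 0 of the 9 genes, where 0.105% of all genes were called, 0.0234% higher and 0.0819% lower. At an unadjusted p under 0.05 there were 3 of 9, against 14.1% of all genes, namely Abca12 (1.63, SE 0.44, limma adjusted p = 0.191), Abhd5 (0.64, SE 0.27, limma adjusted p = 0.323) and Smpd1 (-0.42, SE 0.09, limma adjusted p = 0.153). Elovl4 had a difference of 1.56 with a 95% interval of -0.39 to 3.52. Smpd1 passed without bulge cKO replicate 4 (-0.47, limma adjusted p = 0.03). The larger values in bulge cells are therefore not shown to differ from those in IFE cells.

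**Figure D3:**
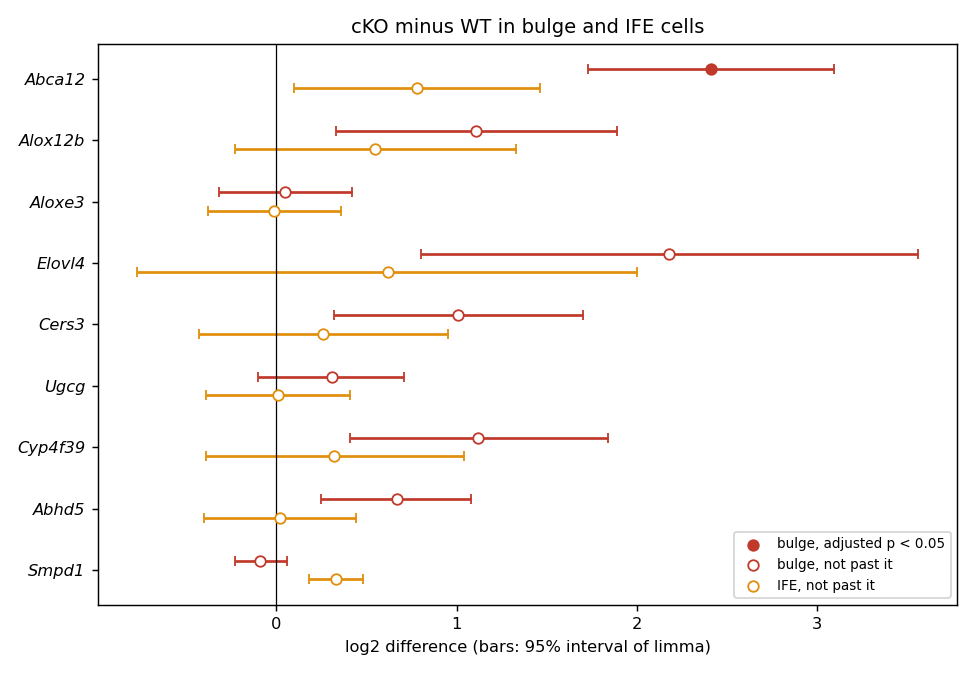
Log2 difference of cKO minus WT (x axis) for each gene, in bulge and in IFE cells; bars are 95% intervals of limma, and filled points passed an adjusted p under 0.05. Abca12 in bulge cells (2.41) is the 1 filled point, and the bulge value is above the IFE value for every gene but Smpd1.

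Differences between the compartments were the widest for most of the genes. In WT cells 6 of the 9 genes were lower in the bulge than in the IFE and Smpd1 was higher, where 35.1% of all genes were called, 16.6% lower and 18.4% higher (2846 and 3152 genes, or 3695 and 2730 with equal array medians). These 7 genes had groups that did not overlap, which held for 23.7% of all genes in each direction. The median log2 difference, bulge minus IFE, was -1.61, against -0.01 over all genes. Abca12 had 4.24 to 4.92 in bulge WT, against 7.38 to 7.84 in IFE WT (log2 difference -3.15, SE 0.33, limma adjusted p = 3.25e-05). Elovl4 had 6.73 to 7.71 against 9.76 to 10.62 (-2.97, SE 0.68, limma adjusted p = 0.00461), and Cers3 4.51 to 4.78 against 6.76 to 7.28 (-2.42, SE 0.34, limma adjusted p = 0.000191), in bulge WT and IFE WT. For all 3 the ranges were far apart.

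Cyp4f39 (-1.73), Abhd5 (-1.61) and Ugcg (-1.04) were also lower in bulge WT, and Abhd5 gave -1.54 on its second probe set. The other Ugcg probe sets gave -1.12 and, at much dimmer signal, -0.24. Smpd1 ran the other way, with 7.51 to 7.69 in bulge WT against 7.12 to 7.2 in IFE WT (log2 difference 0.45, SE 0.07, limma adjusted p = 0.00044). Its dimmer probe set gave 0.12 (limma adjusted p = 0.125). The lipoxygenases did not pass, with -0.58 for Alox12b (95% interval -1.41 to 0.25) and -0.23 for Aloxe3 (-0.63 to 0.17). All 7 calls remained when any single array was left out. The suprabasal markers ran in the direction of the 6 lower genes, with 9 of 16 called lower in bulge WT, 0 higher and a median of -1.53, and their part was not tested.

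In cKO cells 5 genes were lower in the bulge than in the IFE, where 32.1% of all genes were called, 14.6% lower and 17.6% higher (2489 and 3007 genes, or 3118 and 2045 with equal array medians). The median of the 9 was -0.93, against 0.03 over all genes. The groups did not overlap for 4 of the 5 (15% of all genes in this direction), Cyp4f39 being the exception. Cers3 had 4.6 to 6.28 in bulge cKO, against 7 to 7.53 in IFE cKO (log2 difference -1.67, SE 0.29, limma adjusted p = 0.00143). Abca12 (-1.52), Abhd5 (-0.97), Ugcg (-0.75) and Cyp4f39 (-0.93, limma adjusted p = 0.0349) were the others. Cyp4f39 lost its call without bulge cKO replicate 1 (-0.59, limma adjusted p = 0.064) and in 4 other fits with 1 array left out. Elovl4, called in WT, had -1.4 here (SE 0.59, limma adjusted p = 0.0874), against -2.97 between the WT groups (SE 0.68). Elovl4 was called at -1.82 without bulge cKO replicate 2 (limma adjusted p = 0.0345) and at -2.38 without cKO replicates 2 and 3 of both compartments (0.0367). Smpd1 had a difference of 0.04 (95% interval -0.1 to 0.17).

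**Figure D4:**
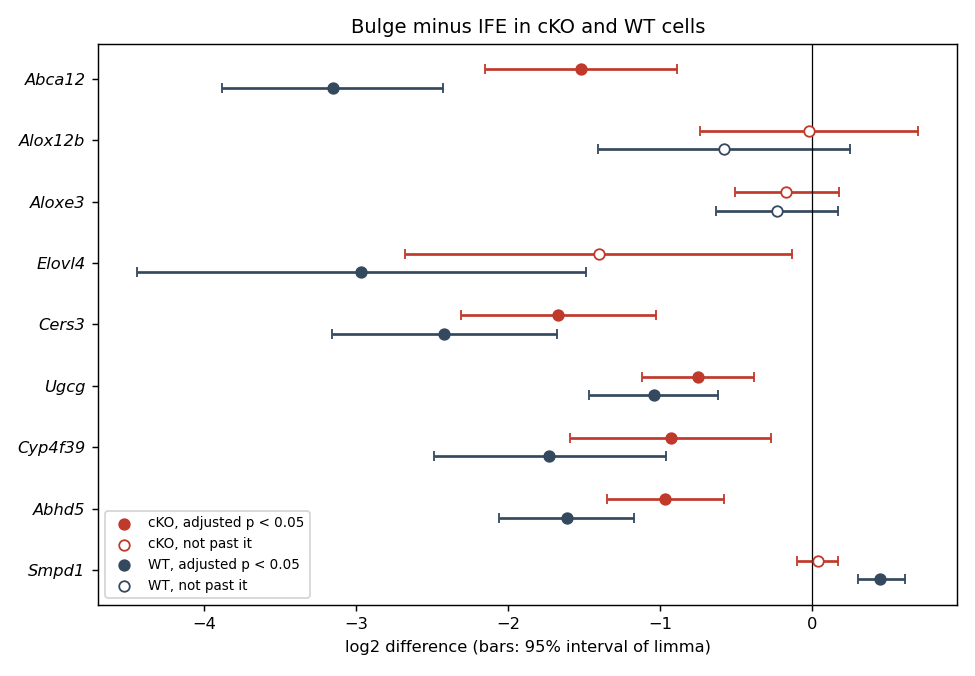
Log2 difference of bulge minus IFE (x axis) for each gene, in cKO and in WT cells; bars are 95% intervals of limma, and filled points passed an adjusted p under 0.05. In WT the points of Abca12 (-3.15), Elovl4 (-2.97) and Cers3 (-2.42) lie farthest to the left, and Smpd1 (0.45) is the 1 filled point to the right of 0.

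Ordered by group mean, 6 genes (Abca12, Elovl4, Cers3, Ugcg, Cyp4f39 and Abhd5) had the same order of bulge WT, bulge cKO, IFE WT and IFE cKO, from low to high. For Ugcg and Abhd5 the last step of that order, between the IFE groups, was only 0.01 and 0.02. Neighbours in that order were apart for Abca12 between bulge cKO and bulge WT and between IFE cKO and IFE WT. Over all genes these gaps were found in 10.5% and 5.01%, with cKO higher. For Cers3, Ugcg and Abhd5 the gap lay between bulge cKO and IFE WT. The shares of all genes with that gap, or with the order of the 6 genes, were not computed. Between the WT compartments 23.7% of all genes were apart in each direction. Every neighbouring pair overlapped for Elovl4 and Cyp4f39. Alox12b had bulge WT lowest and IFE cKO highest, and Aloxe3 bulge WT lowest and IFE WT highest, with overlap throughout. Smpd1 had another order, from IFE WT through IFE cKO and bulge cKO to bulge WT, and only its IFE groups were apart.

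The genes with the most similar pattern were found by the root mean square difference of log2 values over the 14 arrays, each gene centred on its own mean. The median over all genes, where given, lay close to the member's own spread around its mean (1.47 for Abca12). It does not measure how alike the nearest genes are. For Abca12 these were Klk11 (0.29) and the cornification protease gene Casp14 (0.33), where the median over all genes was 1.47. Elovl4 was nearest to the ceramidase gene Acer1 (0.29) and to Tmprss4 (0.32, median 1.52). Cyp4f39 was nearest to Sptlc3 (0.13), which encodes a subunit of the enzyme that starts sphingoid base synthesis, and to Gltp (0.14, median 0.86). Alox12b followed the cornified envelope gene Ivl (0.13) and Crabp2 (0.19, median 0.64). Cers3 was closest to Tfap2c (0.17) and Chst15 (0.19), Abhd5 to Smagp (0.09) and Abhd6 (0.1), and Ugcg to Kdm7a (0.12) and Tollip (0.13), with medians of 1.13, 0.71 and 0.52. Aloxe3 and Smpd1 varied too little over the arrays (0.23 and 0.18 around their means) for likeness to be informative, with Ptpn23 and Dnm2 (0.11 each) and Polr2m and Tprgl (0.08 each) as the nearest.

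The wider pathway was described by 6 lists with 105 genes, of which 92 were measured. In bulge cells 3 of these were called higher in cKO and 2 lower, where 1.98% of all genes were higher and 1.85% lower, with a median log2 difference of 0.14. These bulge values rest on all 4 cKO arrays and are not given without replicates 2 and 3. The 17 genes of fatty acid elongation had 0 calls by limma, with Acsbg1 (0.83, limma adjusted p = 0.0692) nearest to the threshold. Among 18 genes of ceramide synthesis Cers6, another ceramide synthase, rose (0.6, limma adjusted p = 0.0266), while Sptlc3 had 1.02 (0.106). Psap, the precursor of the saposins that help to degrade sphingolipids, fell by 0.28 on the log2 scale (limma adjusted p = 0.019) among 15 genes of ceramide head groups and breakdown. In that list Acer1 had 2.48 (limma adjusted p = 0.0761).

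Lamellar body genes moved both ways, with the transport GTPase Rab11a higher (0.55, limma adjusted p = 0.0371) and Cav1, of caveolae, lower (-0.58, 0.045) among 12. Of 12 cholesterol genes Cyp51, a demethylase of sterol synthesis, rose (1.04, limma adjusted p = 0.0429), and Sqle had 1 (0.0592). The 18 lipoxygenase, lipase and related genes had 0 calls by limma, with 1.17 for Alox12e (limma adjusted p = 0.0773) and 1.64 for the lipase gene Lipm (0.0859). Among 16 transcription factors known from barrier formation Pparg (0.37, limma adjusted p = 0.045) and Ovol1 (1.18, 0.0462) rose. Over the 6 lists 37 of 92 genes had an unadjusted p under 0.05, as had 25.7% of all genes.

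In IFE cells 0 of the 92 were called by limma, and 12 had an unadjusted p under 0.05, as had 11% of all genes. Elovl5, an elongase of polyunsaturated fatty acids, had the smallest adjusted p of the elongation list (0.63, limma adjusted p = 0.107), and Cers4 had 1.08 (0.177). The median over the 92 was 0.09. Between the WT compartments 16 of the 92 were higher and 32 lower in the bulge (18.4% and 16.6% of all genes), with a median of -0.11. Lower genes included Abcg1 (-2.34), Rab11a (-1.36), Sult2b1, the cholesterol sulfotransferase (-1.88), Nipal4 (-1.67) and Acer2 (-1.66). Among the higher ones were the desaturase gene Fads1 (2.87), Cers4 (2.03), Elovl5 (1.28) and the epoxide hydrolase gene Ephx1 (1.32).

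**Figure D5:**
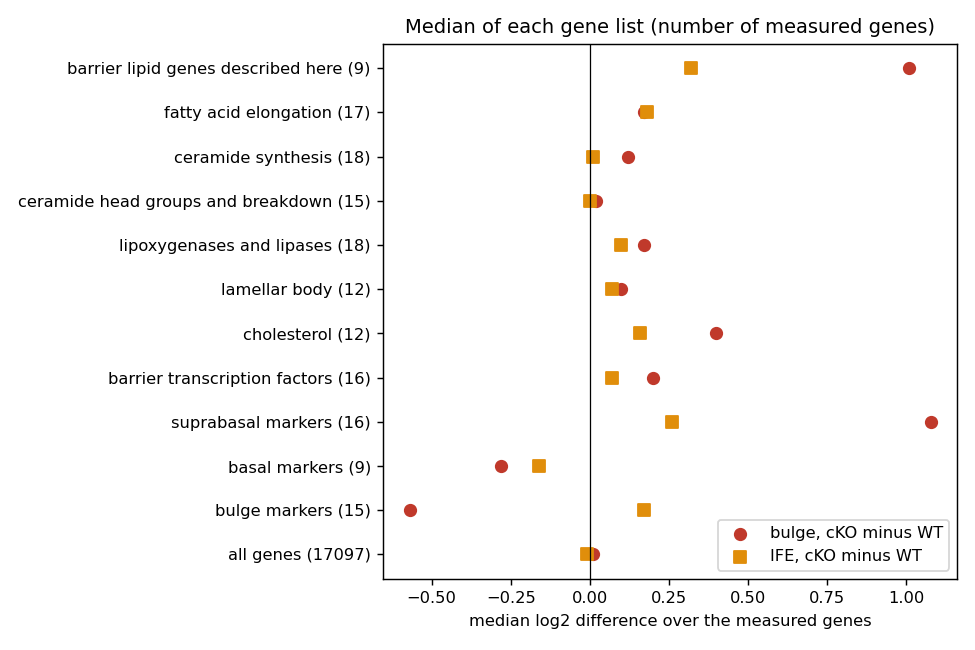
Median log2 difference of cKO minus WT (x axis) over the measured genes of each list (y axis, number measured in brackets), in bulge and IFE cells. The barrier lipid genes (1.01) and the suprabasal markers (1.08) lie to the right in bulge cells, and all genes lie at 0.01 in bulge and -0.01 in IFE cells.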

How the data were processed

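RNA was extracted with TRizol, 25 ng were amplified as cDNA over 17 cycles and labelled with biotin, per the labels. Each deposited value is a log2 signal of a probe set. The authors used RMA (background correction, quantile normalisation and summary of probes) per the submitters' processing notes, of which the sources used here name no version and no further step. The table held 45141 probe sets on 14 arrays, with medians of 5.76 to 5.84. Arrays have no read depth, and their number limits the precision.

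Probe sets were named through the platform annotation and RefSeq by Entrez identifier. Of these 28898 had 1 symbol, 551 had several and 15692 had none, and 28689 symbols were those of RefSeq. Each of the 17097 genes took its probe set of highest mean, a choice among several for 7180 genes. All arrays entered one model with a mean per group (lmFit and eBayes of limma 3.58.1, R 4.3.3, with 10 residual degrees of freedom). Tests were two-sided, with Benjamini-Hochberg adjustment over all genes and a threshold of 0.05. SE and 95% intervals are those of limma. The model was tested on simulated data. Figures were drawn with matplotlib 3.10.9.

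The members, gene lists, motifs and tests were chosen with earlier results of these data known. Named were the members, Ehmt2, markers of cell types, up to 4 genes of each list with the smallest p, and the 2 properly named genes nearest to each member. Alternatives were median centring, cyclic loess, a filter on dim probe sets, other choices of probe set, an intensity trend with robust fit, array weights, only the groups compared, a threshold of 0.1, a replicate block and leaving out single arrays. Leaving out cKO replicates 2 and 3 was added after seeing the data.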

Additional observations from a re-analysis of the deposited data

How the results depend on the processing

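Of the recomputed counts of barrier lipid genes called, 254 stayed within 1.5 times of the value given, 13 rose past it and 1 fell below it. Many of the values given were 0, as in both directions in IFE cells and for the difference of effects. Such a count cannot fall, and it is among the 254 whenever it remained 0. The 254 is therefore no measure of how stable the calls are. In bulge cells cKO against WT gave 1 higher and 0 lower. With only the groups compared it gave 0 higher, where 41 of all genes were called higher and 31 lower. At an adjusted p under 0.1 it gave 6 higher, where all genes gave 1044 higher and 971 lower. Array weights gave 7 higher and 1 lower. Leaving out single arrays gave 1 to 6 higher, where all genes gave 57 to 1189 higher and 59 to 1364 lower. In IFE cells the count of 0 higher became 1 with cyclic loess, with array weights and at the 0.1 threshold. Over all genes these settings called 66 higher and 39 lower, 583 and 875, and 94 and 82. Without single arrays the count was 0 to 1, where all genes gave 30 to 61 higher and 8 to 54 lower. The gene was Smpd1 each time. For the difference of effects array weights gave 5 higher and 1 lower in place of 0 and 0, where 2912 of all genes were called higher and 2062 lower. Single arrays left out gave 0 to 1 lower. The 1 came without bulge cKO replicate 4, where all genes gave 72 higher and 168 lower. Array weights put 15.5 on bulge cKO replicate 3 and 0.283 on replicate 4, and their estimation stopped before it converged. They called 4443 genes higher and 3799 lower in bulge cKO, against 339 and 317. Median centring changed the balance of calls over all genes and left the number of barrier lipid genes called within 1.5 times. The replicate block left 1 gene called higher in bulge cKO (Abca12, 2.49, limma adjusted p = 0.0122) and took the call of Cyp4f39 between the cKO compartments (-0.93, limma adjusted p = 0.0619), as did the fit of only the groups compared (0.0799). Over all genes the block gave 152 higher and 260 lower in bulge cKO. The labels do not say that a number marks a shared animal or batch, and the numbers were not taken to pair the arrays. The correlations across genes of same-numbered arrays' deviations from the group means ran from -0.57 to 0.25. Those of differently numbered arrays ran from -0.39 to 0.47. A correlation over all genes cannot settle whether same-numbered arrays depend on each other in some genes, and this was not tested. Hrnr, a suprabasal marker, read 4.46, 3.8 and 4.34 on bulge WT replicates 1 to 3, and 4.34, 3.84 and 4.31 in IFE WT. Krt1 read 9.87, 9.47 and 9.41 in bulge WT, and 12.37, 11.84 and 12.03 in IFE WT. No called difference of a member changed sign under any alternative run. The signal of Abca12 and Cers3 in bulge WT, below the array medians, limits the size of their differences.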

Other observations

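Alox12b had nearly the same log2 signal on bulge cKO and IFE cKO arrays of the same replicate number. The pairs read 6.46 and 6.47, 7.7 and 7.78, 7.57 and 7.5, and 6.92 and 6.98 in bulge cKO and IFE cKO, and the largest gap was 0.08 in size, while replicates of a group spread over more than a log2 unit. Ivl, the gene nearest to it in pattern, had gaps of up to 0.1 between the same pairs. The pattern was not particular to Alox12b and Ivl. Cnfn, another suprabasal marker, read 6.51, 7.25, 7.12 and 6.94 on bulge cKO replicates 1 to 4, and 6.64, 7.24, 7.23 and 6.93 in IFE cKO. Krt1 did not show it, with 9.36, 11.93, 11.75 and 11.31 in bulge cKO and 12.55, 12.19, 12.06 and 12.38 in IFE cKO. Alox12b did not show it on WT arrays, at 6.17, 5.78 and 6.19 in bulge WT and 7.18, 6.18 and 6.53 in IFE WT. These genes were singled out after their values were seen, and no test was made of this pattern.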
